A study of Mus musculus with 8 samples.

Results

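The genes of cholesterol and fatty acid synthesis were followed in RNA from cultured retinal astrocytes (AC). The set was fixed by symbol and holds 37 genes, all of which were among the 13575 genes of the deposited table. It comprises 18 enzymes of cholesterol synthesis, 5 genes of the SREBP control system, 3 genes of sterol transport and 11 enzymes of fatty acid synthesis, elongation and desaturation, although not every enzyme of these pathways is in it. The rule that chose the genes uses no measured value, but the list was made with earlier results of these data known. There were 4 libraries labelled Cyp1b1-/- and 4 Cyp1b1+/+ libraries, from AC of 4-week-old mice. The paper states that the retinas of a litter of mixed gender were pooled and that endothelial cells were removed with CD31 beads. The cells were propagated in medium with fetal bovine serum and interferon-γ. The Cyp1b1 deficiency of the mice is global. The strain entry was C57BL/6 for each Cyp1b1+/+ library and C57BL/7, C57BL/8, C57BL/9 and C57BL/9 for replicates 1 to 4 labelled Cyp1b1-/-; these entries may be an error and were not used. Nothing states that the replicates came from separate cultures, so the p-values measure the spread between these libraries, which may be technical.

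Cells make cholesterol from acetyl-CoA, first through mevalonate to the isoprenoid farnesyl pyrophosphate, then through squalene and lanosterol to cholesterol. Fatty acids are built from the same acetyl-CoA by acetyl-CoA carboxylase and fatty acid synthase, then lengthened by elongases and given double bonds by desaturases. Both routes are under the control of SREBP transcription factors. When sterols are scarce, SCAP escorts SREBP from the endoplasmic reticulum to the Golgi for cleavage, and when sterols are plentiful, INSIG proteins hold the complex back. In the nervous system astrocytes are a main source of cholesterol, which they export on lipoprotein particles with the help of the transporters ABCA1 and ABCG1.

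The level of the targeted gene and of sex chromosome genes bears on every comparison. Cyp1b1 had normalized values of 1276 to 1368 in the libraries labelled Cyp1b1-/- and 749 to 882 in Cyp1b1+/+ libraries, so its RNA ran against the label, and every direction given here follows the labels. Xist, expressed from the inactive X chromosome, had 34 to 46 in the libraries labelled Cyp1b1-/- and 21084 to 26863 in Cyp1b1+/+ libraries, and the Y-linked Eif2s3y had 1411 to 1553 and 0 to 1. Neither group held high values of both genes, which runs against the mixed gender stated for the pooled litter. Genotype and the sex of the cells therefore cannot be told apart in these libraries. The normalized value is the gene count scaled by the authors to a common library size and rounded. The total per library was 19491502 to 20134745 in the libraries labelled Cyp1b1-/- and 19261729 to 19370850 in Cyp1b1+/+ libraries, which reflects that scaling. The raw depth of each library is unknown. The paper gives only an average number of reads per genotype, and these averages were similar. Of 11 astrocyte markers 5 were in the table, and they moved in both directions. Pax2, a marker of retinal astrocytes, fell to 0, 0, 1 and 0 in the libraries labelled Cyp1b1-/-, against 28, 29, 39 and 35 in Cyp1b1+/+ libraries (limma adjusted p = 5.18e-06). Gja1 rose, with 1232, 3124, 1208 and 1180, against 736, 851, 774 and 810 in Cyp1b1+/+. It made up most of the summed value of the 5 markers, 1327 to 3274 in the libraries labelled Cyp1b1-/- and 910 to 1036 in Cyp1b1+/+ libraries, with 3274 in replicate 2. Sox9 (86 to 105 and 104 to 119), Slc1a3 and Slc1a2 did not pass, and Gfap, Aqp4, S100b, Aldh1l1, Pdgfra and Fabp7 were not among the genes analysed here. Replicate 2 labelled Cyp1b1-/- stood apart in fibroblast markers, with a summed value of 175876 for the 4 measured of 8. The lowest library with that label had 4808, and the Cyp1b1+/+ libraries had 6145 to 7265. Set against the average of replicates 1, 3 and 4, that replicate exceeded it over 2-fold in 499 of all 13575 genes and in none of the 37. It lay over 2-fold below that average in 137 of all genes and in 1 of the 37.

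Of the 37 genes, 7 rose and 14 fell in the libraries labelled Cyp1b1-/- relative to Cyp1b1+/+ libraries, at an adjusted p under 0.05 from limma over all 13575 genes. The other 16 did not pass the test. The 21 genes that passed make up 56.8% of the set, against 53.7% of all genes. The share that rose was 18.9%, against 26.8% of all genes, and the share that fell was 37.8%, against 26.9%. Changes were small. Only Stard4, Tm7sf2 and Abcg1 passed with a change over 1.5-fold, 8.11% of the set against 15.4% of all genes. The median size of the change was 0.15 on the log2 scale, against 0.22 for all genes, and the median signed change was -0.07, against 0.00. The value ranges of the genotypes did not overlap in 18 of the 37 genes (48.6%), against 49.3% of all genes. For such a gene an exact permutation test gives a two-sided p of 0.0286, the smallest that 4 libraries against 4 allow. In total, 15 of the 21 calls held under every alternative processing that gave a value, 4 among the genes that rose and 11 among those that fell.

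**Figure D1:**
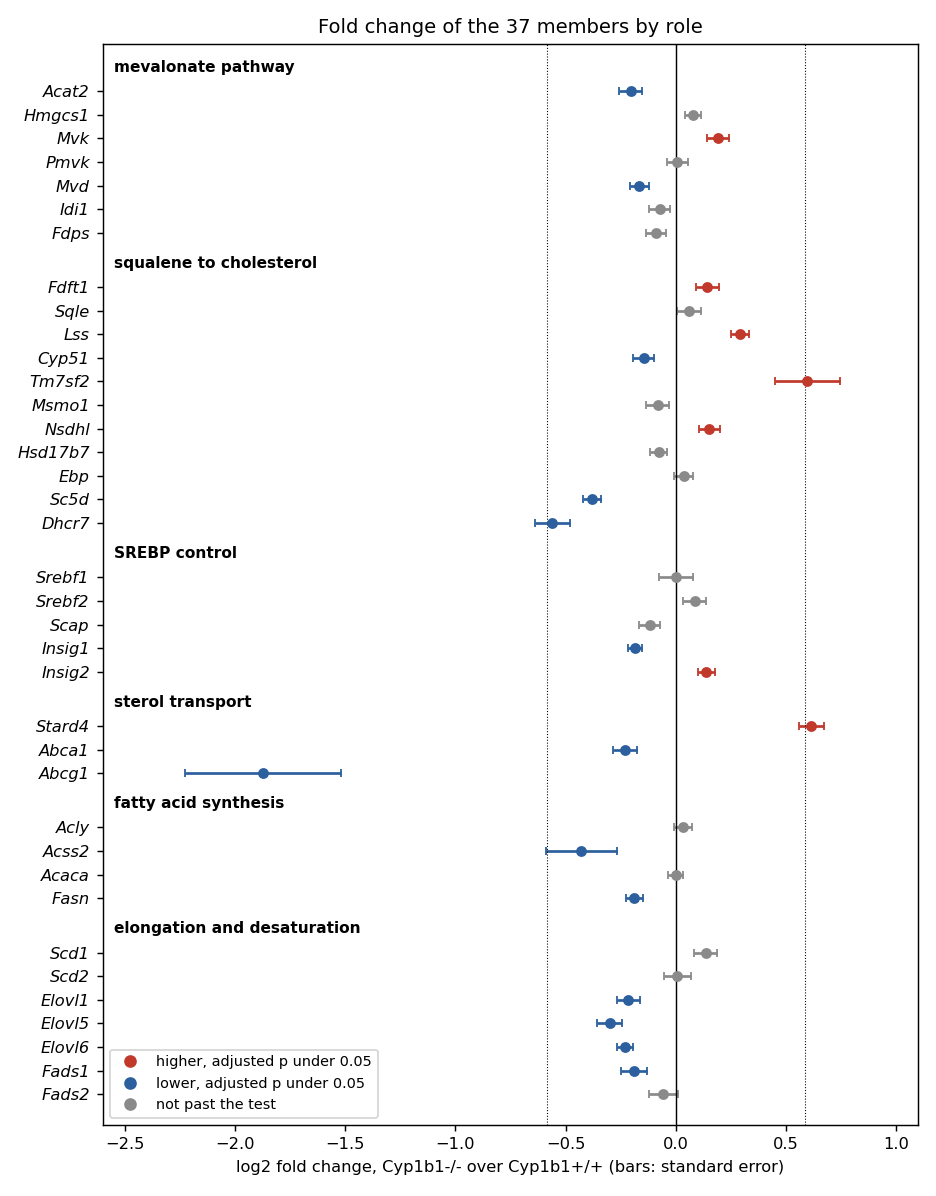
Log2 fold change of each of the 37 genes (libraries labelled Cyp1b1-/- over Cyp1b1+/+ libraries, x axis), grouped by role from the mevalonate pathway at the top. Points are the limma estimates, bars their standard errors, colours the direction of the genes past the test, and dotted lines mark a change of 1.5-fold. Only Stard4, Tm7sf2 and Abcg1 lie beyond the dotted lines, and no fatty acid gene is coloured as higher.

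The level of these genes spanned a wide range. Levels of different genes were compared roughly, on the scale of normalized value per kilobase of merged exons. That length takes in every annotated exon, whether or not these cells use it, so some genes may rank too low. On this scale Scd2, a stearoyl-CoA desaturase, was highest with 3776 in the libraries labelled Cyp1b1-/- and 3756 in Cyp1b1+/+ libraries. Fasn, the fatty acid synthase, followed with 1232 and 1403, and Acly, the ATP citrate lyase that supplies cytosolic acetyl-CoA, with 1102 and 1077. The lowest were Tm7sf2 with 25.6 and 17.1, Acss2 with 10.8 and 14.3, and Abcg1 with 0.99 and 3.70. The cholesterol enzymes other than Tm7sf2 lay between 77.1 and 609 per kilobase in the libraries labelled Cyp1b1-/- and between 114 and 588 in Cyp1b1+/+ libraries.

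The mevalonate pathway was nearly level between the genotypes. Its 7 genes had a summed normalized value of 9477 to 10009 in the libraries labelled Cyp1b1-/- and 9537 to 10444 in Cyp1b1+/+ libraries, and the groups overlapped. Mvk, the mevalonate kinase, rose, and Acat2 and Mvd fell. Mvk had 888, 813, 847 and 862 in replicates 1 to 4 labelled Cyp1b1-/-, against 754, 806, 704 and 725 in Cyp1b1+/+ replicates (log2 change 0.19 ± 0.05 SE, limma adjusted p = 0.00812). The margin between the groups was narrow, at 813 over 806. Acat2, the cytosolic thiolase that joins acetyl-CoA units, had 1323, 1206, 1282 and 1381, against 1581, 1552, 1413 and 1437 in Cyp1b1+/+ (log2 change -0.20 ± 0.05 SE, limma adjusted p = 0.00732). A similar gene, Acat3, is in the table as well, and the division of reads between the pair is uncertain. Mvd, the mevalonate diphosphate decarboxylase, had 488, 508, 507 and 480, against 570, 574, 549 and 534 in Cyp1b1+/+ (log2 change -0.17 ± 0.04 SE, limma adjusted p = 0.00827). The Mvd values thus lay below the Cyp1b1+/+ range in every library.

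The other mevalonate genes did not pass. Hmgcs1, the HMG-CoA synthase, averaged 2799.8 ± 50.8 in the libraries labelled Cyp1b1-/- and 2652 ± 116 in Cyp1b1+/+ libraries (SD, n = 4 each), with a log2 fold change of 0.08 and an adjusted p of 0.0907 from limma. Without Cyp1b1+/+ replicate 1 it passed, and its log2 fold change was between 0.06 and 0.10 over all single libraries left out. Pmvk, the phosphomevalonate kinase, averaged 513 ± 24.1 and 510.0 ± 15.1 (95% interval of the log2 fold change -0.10 to 0.11). For Idi1, the isopentenyl diphosphate isomerase, and Fdps, the farnesyl diphosphate synthase, the intervals ran from -0.18 to 0.03 and from -0.19 to 0.01.

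From squalene to cholesterol, 4 of the 11 enzymes rose and 3 fell, with no common direction. These shares were 36.4% and 27.3%, against 26.8% and 26.9% of all genes. Lss, Tm7sf2, Fdft1 and Nsdhl rose, and Dhcr7, Sc5d and Cyp51 fell. The summed normalized value of the 11 genes was 14216 to 15010 in the libraries labelled Cyp1b1-/- and 14408 to 15692 in Cyp1b1+/+ libraries. Lss, the lanosterol synthase that closes the sterol rings, lies on chromosome 10 of GRCm38, 76531588 to 76557138. It had 2191, 2095, 2227 and 2288 in the libraries labelled Cyp1b1-/-, against 1888, 1830, 1755 and 1716 in Cyp1b1+/+ libraries. The mean was higher by 22.4% (log2 change 0.29 ± 0.04 SE, limma adjusted p = 0.000163). Tm7sf2, a sterol C14 reductase, had 113, 106, 110 and 121, against 54, 90, 75 and 82 in Cyp1b1+/+ (log2 change 0.60 ± 0.15 SE, limma adjusted p = 0.00669). Its exons share 532 bases with Vps51 on the same strand, which rose as well (log2 change 0.46, limma adjusted p = 0.000286), and reads in that stretch cannot be told apart. Without Cyp1b1+/+ replicate 1, the lowest library, the Tm7sf2 change was 0.45.

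Fdft1, the squalene synthase, had 1373, 1351, 1340 and 1390 in the libraries labelled Cyp1b1-/-, against 1344, 1288, 1175 and 1142 in Cyp1b1+/+ libraries (log2 change 0.14 ± 0.05 SE, limma adjusted p = 0.0377). Its groups overlapped through Cyp1b1+/+ replicate 1, and the call was lost with equal column totals and without any of 5 single libraries, namely replicates 1, 3 and 4 labelled Cyp1b1-/- and Cyp1b1+/+ replicates 3 and 4. Its exons share 774 bases with Ctsb on the opposite strand, which fell (log2 change -0.15, limma adjusted p = 0.0464). Nsdhl, a sterol dehydrogenase encoded on the X chromosome, had 631, 695, 631 and 666, against 565, 619, 592 and 586 in Cyp1b1+/+ (log2 change 0.15 ± 0.05 SE, limma adjusted p = 0.0214). The call was lost without replicate 4 of either genotype. Ebp, a sterol isomerase also on the X chromosome, averaged 575 ± 24.2 and 561 ± 15.5 (SD, n = 4 each) and did not pass, with a 95% interval of -0.06 to 0.13 on the log2 scale. The Xist values given above differed between the same libraries, and their part in the values of these X-linked genes was not tested.

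The last enzymes of the pathway fell. Sc5d, the sterol C5 desaturase (chromosome 9, 42251595 to 42264256), had 1371, 1319, 1454 and 1399 in the libraries labelled Cyp1b1-/-, against 1762, 1900, 1827 and 1735 in Cyp1b1+/+ libraries. Its mean fell by 23.3% (log2 change -0.38 ± 0.04 SE, limma adjusted p = 2.89e-05). Dhcr7, the reductase that finishes cholesterol from its last precursor (chromosome 7, 143823145 to 143848410), had 445, 395, 472 and 482, against 583, 704, 708 and 654 in Cyp1b1+/+. Its mean fell by 32.3% (log2 change -0.56 ± 0.08 SE, limma adjusted p = 0.000183). Both genes kept their call under every alternative, with adjusted p up to 0.000437 and 0.00106 from limma. Cyp51, the lanosterol demethylase of the cytochrome P450 family, had 1838, 2035, 1980 and 1954, against 2072, 2288, 2234 and 2052 in Cyp1b1+/+ (log2 change -0.15 ± 0.05 SE, limma adjusted p = 0.0214). The groups were apart by 2052 over 2035, and the call was lost without replicate 1 labelled Cyp1b1-/- or Cyp1b1+/+ replicate 2 or 3. Its exons share 166 bases with Akap9 on the opposite strand, which rose (log2 change 0.19, limma adjusted p = 0.0116). Sqle, the squalene epoxidase, averaged 2226 ± 107 and 2137 ± 153, Msmo1, the sterol C4 methyl oxidase, 2789 ± 155 and 2954 ± 185, and Hsd17b7, a sterol ketoreductase, 894 ± 28.6 and 944 ± 28.3 (SD, n = 4 each). None of these passed, although Msmo1 did without Cyp1b1+/+ replicate 1.

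**Figure D2:**
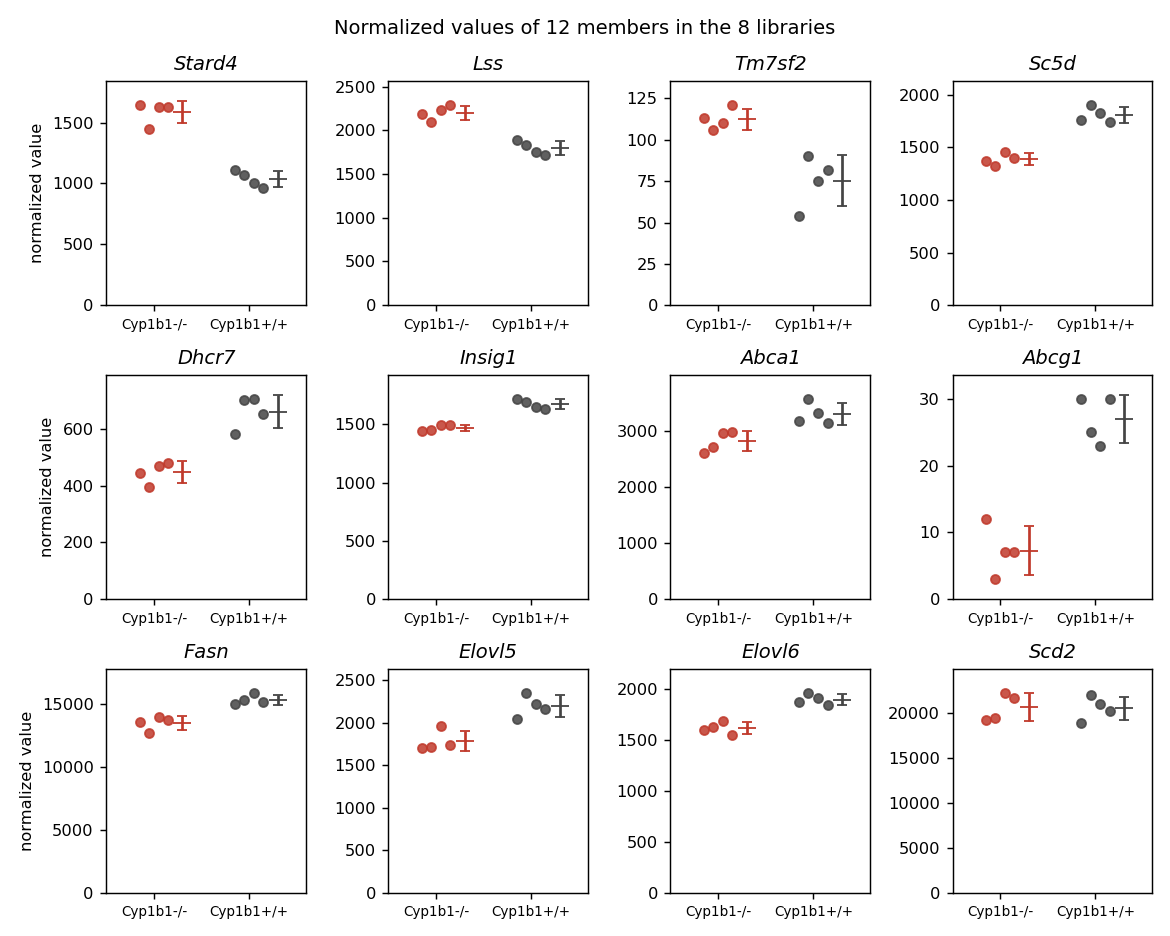
Normalized values (y axis, from 0) of 12 of the genes in each library, with the libraries labelled Cyp1b1-/- on the left and Cyp1b1+/+ libraries on the right of each panel. Points are libraries, and bars show the mean and SD of 4. The groups are apart in every panel but that of Scd2, where 19238 to 22244 in the libraries labelled Cyp1b1-/- overlap 18921 to 21972 in Cyp1b1+/+ libraries.

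Among the regulators, Insig1 fell and Insig2 rose, while the SREBP genes themselves did not pass. Srebf1, which encodes SREBP1, had 2652, 2523, 2854 and 2640 in the libraries labelled Cyp1b1-/-, against 2228, 2907, 2795 and 2788 in Cyp1b1+/+ libraries. Its interval was -0.17 to 0.17 on the log2 scale (limma adjusted p = 0.997), and Cyp1b1+/+ replicate 1 was the lowest of all 8. Srebf2, which encodes SREBP2, the main factor of cholesterol genes, had 4701, 4393, 4718 and 4661, against 3912, 4570, 4625 and 4344 in Cyp1b1+/+ (log2 change 0.08, 95% interval -0.03 to 0.20, limma adjusted p = 0.198). Scap, the escort protein, had 2108, 2116, 2188 and 2164, against 2095, 2461, 2418 and 2355 in Cyp1b1+/+ (log2 change -0.12 ± 0.05 SE, limma adjusted p = 0.0619). It passed with equal column totals, with the replicate number as a block, and without Cyp1b1+/+ replicate 1, its lowest library in that genotype.

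Insig1, itself a classic SREBP target, had 1445, 1455, 1493 and 1492 in the libraries labelled Cyp1b1-/-, against 1719, 1696, 1650 and 1629 in Cyp1b1+/+ libraries. Every library of the first group lay below every one of the second, and the mean fell by 12.1% (log2 change -0.19 ± 0.03 SE, limma adjusted p = 0.000594). Insig2, which holds back SCAP in the same manner, had 856, 813, 816 and 814, against 758, 745, 779 and 717 in Cyp1b1+/+ (log2 change 0.14 ± 0.04 SE, limma adjusted p = 0.0132). With equal column totals Insig2 narrowly missed the threshold (limma adjusted p = 0.0503). Of 13 measured genes of SREBP processing and its partners, 1 rose, 3 fell and 9 did not pass, with a median log2 fold change of -0.08. The shares that rose and fell were 7.69% and 23.1%, against 26.8% and 26.9% of all genes. Akt1, a kinase of insulin signalling, rose (log2 change 0.21), and Crtc2 (log2 change -0.45), Nsf (log2 change -0.28) and the growth-control kinase gene Mtor (log2 change -0.25) fell. The proteases that cleave SREBP did not pass, Mbtps1 at -0.01 and Mbtps2 at -0.08 on the log2 scale.

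Promoter sequences of RefSeq on GRCm38.p6 were searched for 4 motifs that SREBP and its partner factors are known to use, on both strands, from 250 bases before to 50 after each start. A sequence was found for 29 of the 37 genes, and Fdps, Fdft1, Sqle, Stard4, Abcg1, Scd1, Scd2 and Fads1 had none. The sterol response element TCACNCCAC matched in 1 of the 29 genes (3.45%), against 1.35% of the 9719 genes of the table with a promoter. The E-box CACGTG, a palindrome bound by SREBP1, USF and other helix-loop-helix factors, matched in 7 genes (24.1%), against 11.9%. It was found in 5 of the 12 genes that fell, in none of the 5 that rose and in 2 of the 12 that did not pass. The NF-Y box CCAAT matched in 79.3%, against 43.5%, and the Sp1 box GGGCGG in 82.8%, against 70.2%. These are descriptions of short letter matches. The stretches below show the E-box, in capitals, in 4 of the genes that fell and in Hsd17b7, which did not pass, and the sterol response element, in capitals, in Hmgcs1. Each is printed 5′ to 3′ on the strand of the gene, lies before the start and overlaps no annotated exon.
Insig1, chr5:28071271-28071356, plus strand: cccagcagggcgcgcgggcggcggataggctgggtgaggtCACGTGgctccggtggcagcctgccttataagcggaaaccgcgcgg
Sc5d, chr9:42264353-42264438, minus strand: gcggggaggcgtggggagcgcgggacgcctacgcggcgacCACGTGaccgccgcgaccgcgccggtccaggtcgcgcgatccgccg
Elovl5, chr9:77917164-77917249, plus strand: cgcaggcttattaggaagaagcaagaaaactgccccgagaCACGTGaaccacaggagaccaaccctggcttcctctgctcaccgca
Abca1, chr4:53159997-53160082, minus strand: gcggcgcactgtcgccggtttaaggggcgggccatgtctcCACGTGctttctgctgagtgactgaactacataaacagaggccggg
Hsd17b7, chr1:169969303-169969388, minus strand: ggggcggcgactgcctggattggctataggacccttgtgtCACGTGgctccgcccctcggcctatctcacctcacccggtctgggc
Hmgcs1, chr13:119690174-119690262, plus strand: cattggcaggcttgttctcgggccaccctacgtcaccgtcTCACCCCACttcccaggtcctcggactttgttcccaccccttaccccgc
In these genes the E-box begins 101 (Insig1), 98 (Sc5d), 161 (Elovl5), 147 (Abca1) and 143 (Hsd17b7) bases before the start, and the Hmgcs1 element 137 bases before it. A CCAAT box on either strand falls inside the printed stretch of Hsd17b7 and of Hmgcs1 and of none of the other 4.

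The 3 genes of sterol transport all passed, as did 53.7% of all genes, and they moved in both directions. Abcg1 and Stard4 held the largest changes of the set. Stard4, a carrier that moves cholesterol between membranes (chromosome 18, 33199355 to 33213862), had 1644, 1450, 1629 and 1627 in the libraries labelled Cyp1b1-/-, against 1112, 1072, 1001 and 961 in Cyp1b1+/+ libraries. Its mean was 1.53 times the Cyp1b1+/+ mean, 1588 ± 92.0 against 1036 ± 68.1 (SD, n = 4 each; log2 change 0.62 ± 0.06 SE, limma adjusted p = 9.11e-06). Abca1, the exporter that loads cholesterol onto apolipoproteins, had 2607, 2711, 2960 and 2973, against 3181, 3567, 3316 and 3129 in Cyp1b1+/+ (log2 change -0.23 ± 0.05 SE, limma adjusted p = 0.00504). Abcg1, which passes cholesterol to lipoprotein particles, had 12, 3, 7 and 7, against 30, 25, 23 and 30 in Cyp1b1+/+ (log2 change -1.87 ± 0.35 SE, limma adjusted p = 0.00126). Both exporters fell, and their groups did not overlap. The Abcg1 values are near the bottom of the scale, so the added constant of 1 makes this change smaller, and with constants of 0.1 and 0.5 it was also called. A filter of at least 10 in every library removed the gene.

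Other genes of sterol handling moved in both directions. Of 16 genes of sterol uptake and intracellular transport, 5 rose (31.2%) and 6 fell (37.5%), against 26.8% and 26.9% of all genes. The oxysterol-binding proteins Osbp (1807 ± 64.0 in the libraries labelled Cyp1b1-/- and 1237.5 ± 34.4 in Cyp1b1+/+ libraries, SD, n = 4 each, log2 change 0.55, limma adjusted p = 1.00e-06) and Osbpl8 (log2 change 0.64, limma adjusted p = 4.77e-05) rose. Npc2, the lysosomal cholesterol carrier, fell to 4834 ± 243 in the libraries labelled Cyp1b1-/-, against 6409.8 ± 254 in Cyp1b1+/+ libraries (log2 change -0.41, limma adjusted p = 2.55e-05). Gramd1c, of the sterol transporters at membrane contacts, also fell (log2 change -1.22, limma adjusted p = 0.000352). Among 10 measured genes of lipoproteins and lipid efflux, 2 rose (20%) and 3 fell (30%), near the shares of all genes. Apoe, the main apolipoprotein of astrocyte particles, fell to 97, 81, 86 and 92 in the libraries labelled Cyp1b1-/-, against 246, 337, 315 and 295 in Cyp1b1+/+ libraries (log2 change -1.73, limma adjusted p = 5.71e-07). Apod, a lipid-binding apolipoprotein, fell to 17, 8, 13 and 10 in the libraries labelled Cyp1b1-/-, against 62, 75, 45 and 68 in Cyp1b1+/+ libraries. Of the ABC transporters in the list, Abca7 (log2 change 0.48) and Abca9 (log2 change 0.60) rose and Abca3 (log2 change -0.33) fell. Of 7 measured genes of sterol esters and oxysterols, 1 rose (14.3%) and 3 fell (42.9%). Hsd3b7, of bile acid synthesis, rose (log2 change 0.68). Soat1, which makes cholesterol esters (log2 change -0.25), Nceh1, which cleaves them (log2 change -0.36), and the oxysterol hydroxylase gene Cyp39a1 (log2 change -0.55) fell. Of 13 genes of the isoprenoid branches, which draw on the same mevalonate, 6 rose (46.2%) and 4 fell (30.8%). Nus1, needed for dolichol, rose (log2 change 0.44), and Icmt, which methylates prenylated proteins, fell (log2 change -0.28).

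In the fatty acid enzymes every change that passed was a fall. Of the 11 genes, 6 fell (54.5%, against 26.9% of all genes), none rose and 5 did not pass. Fasn (chromosome 11, 120805846 to 120824547) had 13572, 12717, 13940 and 13727 in the libraries labelled Cyp1b1-/-, against 15051, 15294, 15915 and 15168 in Cyp1b1+/+ libraries. Its mean fell by 12.2% (log2 change -0.19 ± 0.04 SE, limma adjusted p = 0.00185). Acaca, the acetyl-CoA carboxylase that makes malonyl-CoA, averaged 3806 ± 128 and 3810.0 ± 88.0 (SD, n = 4 each) with an interval of -0.08 to 0.07 on the log2 scale. Acly averaged 5816 ± 336 and 5686 ± 139.6, with an interval of -0.06 to 0.13. Acss2, which makes acetyl-CoA from acetate, had 84, 151, 113 and 93, against 146, 155, 132 and 148 in Cyp1b1+/+ (log2 change -0.43 ± 0.16 SE, limma adjusted p = 0.0465). Replicate 2 labelled Cyp1b1-/- reached the Cyp1b1+/+ range. The call was lost without any one of the other 7 libraries (adjusted p up to 0.123 from limma). The summed value of these 4 genes was 22860 to 23652 in the libraries labelled Cyp1b1-/- and 24644 to 25372 in Cyp1b1+/+ libraries, without overlap, and this separation was carried by Fasn. Without it the other 3 summed to 9324 to 10143 and 9457 to 9883, which overlapped.

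All 3 elongases of the set fell, as did 26.9% of all genes. Elovl1, which acts on very long saturated chains and shares 53 exon bases with Cdc20 on the opposite strand, had 1208, 1399, 1220 and 1232 in the libraries labelled Cyp1b1-/-, against 1405, 1521, 1472 and 1466 in Cyp1b1+/+ libraries (log2 change -0.21 ± 0.05 SE, limma adjusted p = 0.00468). Elovl5, which lengthens polyunsaturated chains, had 1706, 1715, 1959 and 1742, against 2044, 2352, 2217 and 2158 in Cyp1b1+/+ (log2 change -0.30 ± 0.06 SE, limma adjusted p = 0.00104). Elovl6, which lengthens palmitate to stearate, had 1596, 1622, 1685 and 1551, against 1866, 1961, 1909 and 1839 in Cyp1b1+/+ (log2 change -0.23 ± 0.04 SE, limma adjusted p = 0.000349). In each of these genes the groups were apart, and the call held under every alternative. Their summed value was 4510 to 4864 in the libraries labelled Cyp1b1-/- and 5315 to 5834 in Cyp1b1+/+ libraries, a change of the mean of -16.1%.

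The desaturases were less uniform. Fads1, which makes the double bond at carbon Δ5 of polyunsaturated chains, had 2384, 2329, 2591 and 2482 in the libraries labelled Cyp1b1-/-, against 2551, 3109, 2820 and 2716 in Cyp1b1+/+ libraries (log2 change -0.19 ± 0.06 SE, limma adjusted p = 0.0186). The groups overlapped at 2591 and 2551, and the call was lost without replicate 1 labelled Cyp1b1-/- (limma adjusted p = 0.0503). Fads2, its partner at Δ6, also on chromosome 19, averaged 1499 ± 41.5 and 1566 ± 168 (SD, n = 4 each; 95% interval -0.21 to 0.09). Scd1, the stearoyl-CoA desaturase that SREBP1 and LXR are known to induce, had 3281, 3047, 3418 and 3579, against 2934, 3237, 3027 and 2927 in Cyp1b1+/+ (log2 change 0.13 ± 0.05 SE, limma adjusted p = 0.0507). It passed with median-ratio scaling, with the filter of at least 10, and without replicate 2 of either genotype. Scd2, the related desaturase prominent in brain, had 19238, 19407, 22244 and 21641, against 18921, 21972, 20961 and 20240 in Cyp1b1+/+ (log2 change 0.01, 95% interval -0.13 to 0.14, limma adjusted p = 0.934). Scd1 and Scd2 are close in sequence, and the division of reads between them is uncertain.

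**Figure D3:**
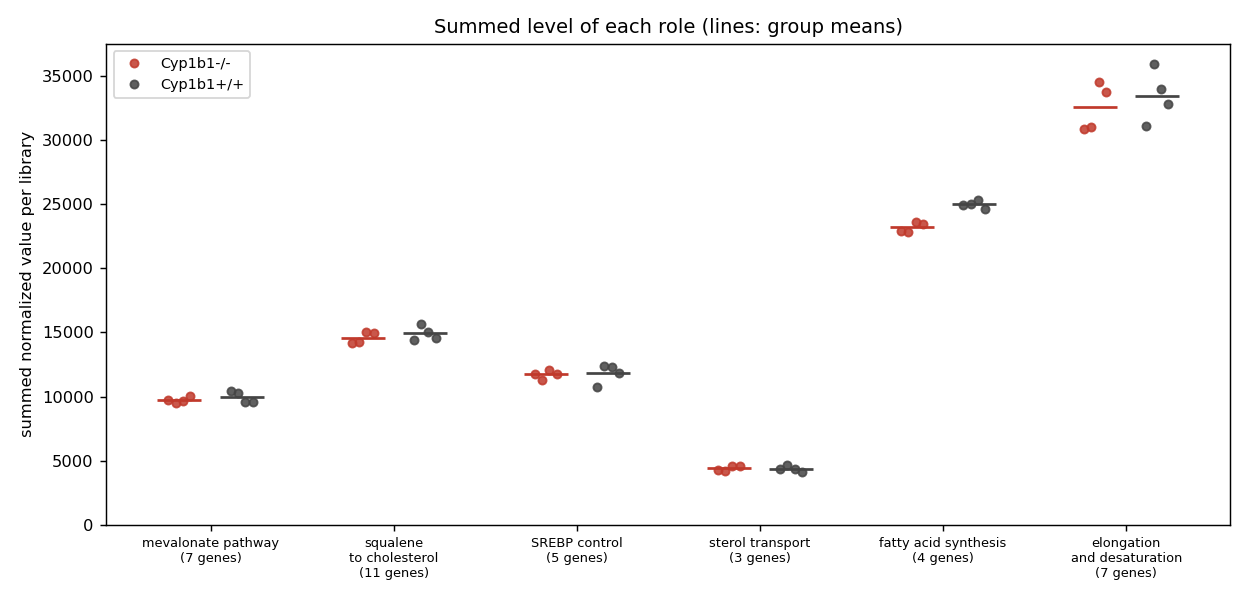
Summed normalized value per library (y axis, from 0) for each of the 6 roles, with the libraries labelled Cyp1b1-/- to the left of Cyp1b1+/+ libraries. Points are the 4 libraries of each genotype and lines their means. Only the sum for fatty acid synthesis is apart, at 22860 to 23652 against 24644 to 25372, and without Fasn it overlaps as the other 5 do.

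Other genes of fatty acid metabolism were read against the 26.8% of all genes that rose and the 26.9% that fell. Of 16 further genes of synthesis, elongation and desaturation, 3 rose (18.8%) and 6 fell (37.5%). Elovl4, an elongase of very long chains known for its role in photoreceptors, fell to 179 ± 14.2 in the libraries labelled Cyp1b1-/-, against 499.5 ± 32.4 in Cyp1b1+/+ libraries (SD, n = 4 each; log2 change -1.48, limma adjusted p = 1.35e-07). Fads3, of the same gene family as Fads1 and Fads2, fell to 773 ± 26.4, against 1390.0 ± 96.8 in Cyp1b1+/+ (log2 change -0.84, limma adjusted p = 6.78e-07). Of 11 measured genes of fatty acid uptake and activation, 1 rose (9.09%) and 7 fell (63.6%). The acyl-CoA synthetase Acsl5 rose to 3387 ± 65.7, against 2204 ± 101 in Cyp1b1+/+ (log2 change 0.62, limma adjusted p = 4.97e-07, with 404 exon bases shared with Zdhhc6 on the opposite strand), and the fatty acid transporters Slc27a1 (log2 change -0.83) and Slc27a3 (log2 change -1.68) fell. Of 21 measured genes of fatty acid oxidation, 2 rose (9.52%) and 13 fell (61.9%), with a median log2 fold change of -0.12. Decr1, a mitochondrial reductase for unsaturated chains, was the only one past 1.5-fold (log2 change -1.60, limma adjusted p = 2.62e-05). Of 17 measured genes of triglyceride synthesis and lipid droplets, 8 rose (47.1%) and 2 fell (11.8%). Agpat3, an acyltransferase, rose (log2 change 0.46), while Lpin3, a phosphatidate phosphatase, and Dgat2, which makes triglyceride, fell (log2 fold change -1.73 and -0.67). Over the 9 lists, 29 of 124 genes rose (23.4%) and 47 fell (37.9%).

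**Figure D4:**
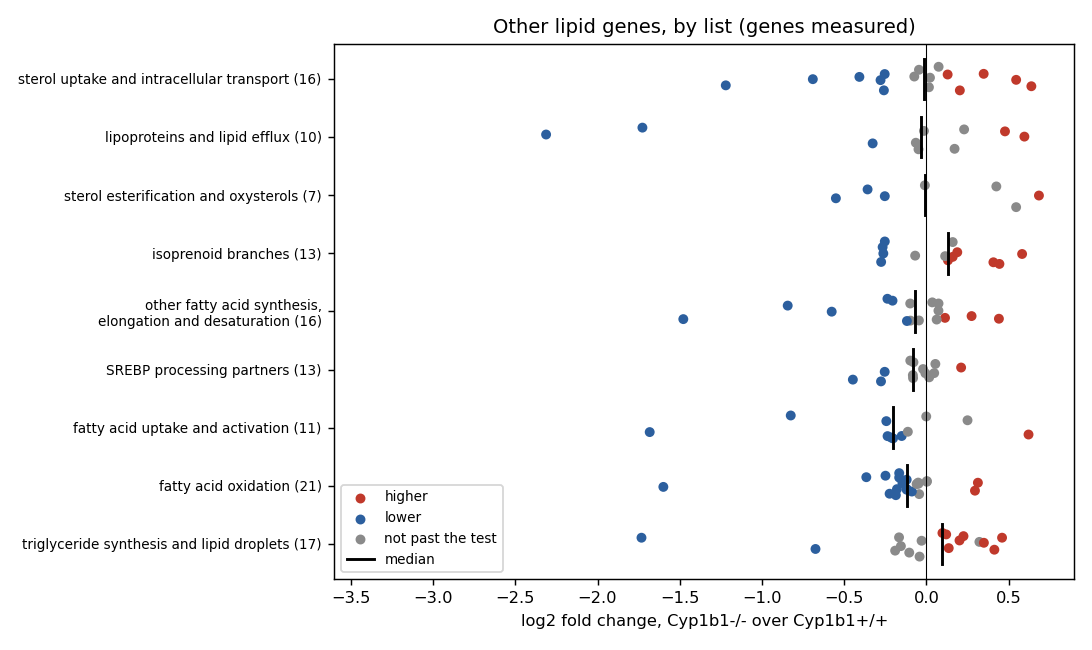
Log2 fold change (libraries labelled Cyp1b1-/- over Cyp1b1+/+ libraries, x axis) of 124 other lipid genes in 9 lists, with the number measured in parentheses. Points are genes coloured by direction where they passed the test, and black bars are list medians. The median was -0.20 for fatty acid uptake and activation and 0.10 for triglyceride synthesis and lipid droplets, and the points of each list lie on both sides of 0.

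Markers of other cells rich in lipid synthesis were examined beside these values. In bulk libraries, fewer cells of a type and less RNA per cell cannot be told apart. Of 10 markers of oligodendrocytes and Schwann cells, whose myelin is rich in cholesterol, 4 were in the table, with a summed value of 689 to 824 in the libraries labelled Cyp1b1-/- and 1081 to 1181 in Cyp1b1+/+ libraries. Mbp, of the myelin sheath, had 28 to 42 and 221 to 263, and Sox10, Mog and Mag were not among the genes analysed here. Of 8 adipocyte markers Pparg and Lpl were in the table, with a summed value of 364 to 434 and 925 to 1071, nearly all of it Lpl. For Müller glia 4 of 8 markers summed to 4228 to 4469 and 7370 to 7938. Most of that difference was Dkk3, with means of 1788.5 in the libraries labelled Cyp1b1-/- and 4597 in Cyp1b1+/+ libraries. Lhx2 and Apoe also fell, and Glul did not pass (means 1632.5 and 1664.25). These marker sums were lower in the libraries labelled Cyp1b1-/-, as were the elongases and Fasn, and their part in those results was not tested.

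Within each genotype the typical gene among the 37 varied by a few percent between libraries. For those with a mean of at least 50, the median coefficient of variation was 4.23% in the libraries labelled Cyp1b1-/- and 5.70% in Cyp1b1+/+ libraries, against 5.44% and 5.14% for all genes. Replicate 2 labelled Cyp1b1-/- held the lowest value of its group in 19 of the 37 genes, replicate 1 in 14, and replicates 3 and 4 in 2 each. Among Cyp1b1+/+ libraries, replicate 1 was lowest in 16 genes, replicate 4 in 14, replicate 3 in 7 and replicate 2 in none, and replicate 2 was highest in 22. The ratio of replicate 2 labelled Cyp1b1-/- to the average of the others, each after adding 1, ran from 0.41 for Abcg1 to 1.56 for Acss2, with a median of 0.95. Without that replicate, 8 of the 37 genes rose and 14 fell.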

How the data were processed

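According to the study's methods and the submitters' processing notes, base calls came from bcl2fastq 2.20. Paired-end reads of poly(A) RNA were mapped by the authors with STAR 2.5.3a on GRCm38.p6, and RSEM gave the gene counts. The authors then dropped low-abundance genes and used edgeR 3.28.0 for TMM scaling and their linear model. Each score deposited by the authors is a gene count brought to a common library size and then rounded. The raw depth of each library and the counting error are therefore unknown. The authors' own comparison columns (fold change, abundance, likelihood ratio, p-value and FDR) and their separate list of selected genes were left unused.

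The values are not raw counts, so they were tested on a log scale with limma 3.58.1 (R 4.3.3, trend option). The test was run two-sided on log2(value + 1) for 13575 genes in all 8 libraries, without covariates. Adjustment was by Benjamini-Hochberg, with calls at an adjusted p under 0.05. Log2 changes are of the libraries labelled Cyp1b1-/- over Cyp1b1+/+ on this scale, which understates the changes of low genes. The fit was tested on simulated data. Python 3.11.15, numpy 2.4.6, pandas 2.3.3, scipy 1.17.1 and matplotlib 3.10.9 served for summaries and plots.

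The 37 genes, the 9 lists of other lipid genes, the marker lists and the motifs were chosen with earlier results of these data known. All 37 may be named. From each other list the genes named are among the 4 with the smallest p, and from marker lists those with the highest level, at 0 or not among the genes analysed. Abca3, Mbtps1, Mbtps2, the genes that overlap others, Mbp and the astrocyte markers Sox9, Slc1a2 and Slc1a3 were singled out with their values in view. Coordinates and exon lengths are of GENCODE release 21 for mouse on GRCm38. Exons of 13 of the 37 genes overlap another annotated gene, for 7 of them one in the table. Whether counting used strand is not given in the sources used here. Alternatives were pseudocounts of 0.1 and 0.5, median-ratio scaling, totals made equal, a minimum of 10 in every library, the replicate number as a block and each library left out. Leaving out replicate 2 labelled Cyp1b1-/- together with Cyp1b1+/+ replicate 1 was added after seeing the data.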

Additional observations from a re-analysis of the deposited data

Results flagged for a closer look

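In 6 of the 74 groups of 4 values (37 genes in 2 genotypes), 1 library lay far from the other 3 by Dixon's criterion, which chance alone meets in about 1 in 20 groups. Insig2 had 856 in replicate 1 labelled Cyp1b1-/- and 813 to 816 in the others with that label. Stard4 had 1450 in replicate 2 labelled Cyp1b1-/-, against 1627 to 1644, and Elovl1 had 1399 in the same library, against 1208 to 1232. Elovl5 had 1959 in replicate 3 with that label, against 1706 to 1742, and Fdps 1936 in replicate 4, against 1819 to 1836. In Cyp1b1+/+ libraries, Idi1 had 2230 in replicate 1, against 1923 to 1950. These single values of Stard4, Elovl1 and Elovl5 lay toward the Cyp1b1+/+ range without reaching it, and that of Insig2 lay away from it.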

How the results depend on the processing

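Over the 15 alternatives, 5 to 8 of the 37 genes rose and 11 to 17 fell, against 7 and 14, and no called gene changed direction. With each library left out in turn the counts were 5 to 8 and 11 to 15. Equal column totals gave 5 rises and 15 falls. With replicate 2 labelled Cyp1b1-/- and Cyp1b1+/+ replicate 1 both left out, a setting chosen after seeing the data, 8 rose and 17 fell. Between same-numbered libraries, the correlations of the deviations from the group means were -0.05, 0.02, -0.00 and -0.04 for replicates 1 to 4. Pairs with unlike numbers ran from -0.07 to 0.09. These values show no shared deviation but cannot tell whether same-numbered libraries were prepared together. With the replicate number as a block 7 genes rose and 15 fell, and Scap was the added call. Of the 16 genes that did not pass, 5 passed under at least 1 setting. The calls of Fdft1, Cyp51, Nsdhl, Insig2, Acss2 and Fads1 were each lost under at least 1. The depth of each library is unknown, so the precision of low values, as in Abcg1, Acss2 and Tm7sf2, rests on the spread between libraries alone.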
